A study of Glycine max with 2 samples.

Results

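Of the 78773 soybean cDNA gene models measured by RNA-Seq in young shoot tips, 83 models from 66 loci had far higher transcript levels in Clark glabrous (CG) than in Clark standard (CS). CG is the hairless mutant isoline, which carries the dominant P1 glabrous allele introgressed into the Clark background by repeated backcrossing, and CS is the wild type with trichomes. Both lines were grown in a greenhouse under optimal conditions and were sampled at 4 weeks, and each line is represented by 1 library made from the shoot tips of several plants. A difference between the lines therefore has no replicate check, no p-value is given for it, and differences between the genotypes cannot be told apart from differences between the 2 sets of plants or libraries. The level of a model is its RPKM, the number of read alignments scaled to the length of the model in kilobases and to a total for the library. A model was taken when its mean RPKM over both libraries was 1 or more and log2((CG RPKM + 0.1)/(CS RPKM + 0.1)) was 5 or more, which is the same as a CS/CG log2 ratio of -5 or less, or about 32-fold. The 83 models are 0.19% of the 43753 models that reached the mean of 1 RPKM, called expressed models below. Since the RPKM values of these libraries chose the members, the levels and ratios below are a description of them.

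A Glyma identifier gives the chromosome, then a number in the order of the loci along it, and a last digit for the alternative transcript model of the locus. Soybean is an ancient polyploid with many near-identical gene copies, and reads that match several copies or several models of a locus were counted on each of them. Trichomes are hairs that grow out of single epidermal cells, and in Arabidopsis their formation is started by a complex of MYB, bHLH and WD40 regulators. Mitogen-activated protein kinases (MAP kinases) pass signals such as wounding and pathogen contact from the cell surface to the nucleus by phosphorylation, and WRKY proteins are plant transcription factors, many of which act in responses to stress and pathogens.

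Totals of about 147000000 alignments in CG and 153000000 in CS fit the RPKM values, as worked out from the steps between low values. A read can have several alignments, and these totals exceed the numbers of reads that the methods state for the libraries. They also place CS above CG, while the methods state more mapped reads for CG, so that scaling by mapped reads would lower each log2 CG/CS ratio by about 0.16 and leave 71 of the 83 members. All numbers of alignments and their intervals rest on the recovered totals. On these totals the members had between 156 and 384378 alignments in CG and between 1 and 9991 in CS where they were above 0, given as the smallest whole numbers that fit both values. The median log2 CG/CS ratio of all expressed models was 0.34, and after this shift was removed 60 of the 83 members still had a ratio of 5 or more. A gene of green tissue, the chlorophyll a-b binding protein model Glyma16g28030.1, was abundant in both libraries but lower in CG, with 281 RPKM in CG and 1093 RPKM in CS. The study's list of tags names 2 expressed chlorophyll models, Glyma16g28030.1 itself and another. Both were at least 2-fold higher in CS, with log2 CG/CS ratios of -1.96 and -2.39. The list was chosen by tag counts in the same lines, mostly for tags more abundant in CS, and is not independent evidence of a direction. Whether the proportions of tissues in the shoot tips differed was not tested, and in bulk RNA fewer cells of a type and less RNA per cell cannot be told apart. The study lists 17 loci as orthologs of Arabidopsis trichome regulators, of which 13 were expressed here by the mean of 1 RPKM. Of these, 0 were member loci, against 0.188% of all expressed loci, so that nothing is read from the 0. Their highest log2 ratio was 3.13, for Glyma06g45940, listed as ortholog of TRY. The study describes TRY as a negative regulator of trichome development.

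Names could be given to 3 members, from the study's table that pairs short 3′ sequence tags with models and with annotations. Glyma11g15700.1 and Glyma12g07770.1, on chromosomes 11 and 12, are both annotated there as mitogen-activated protein kinase 1, and Glyma07g02630.1 is annotated as the transcription factor WRKY27. The tags are shown because they are the link between these identifiers and their names. Each has 16 bases and lies next to a DpnII site of the transcript:
Glyma07g02630.1: tttcataaagtgcatc
Glyma11g15700.1: aaactccctaggtaat
Glyma12g07770.1: aagttgaatgaaaatt
The reference table of gene names used here matched none of the Glyma identifiers, and the other 80 members are given by identifier alone.

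WRKY27, Glyma07g02630.1, had 160.9 RPKM in CG and 2.11 RPKM in CS, from 37321 and 507 alignments. Its CG/CS ratio was 76.4-fold, with an exact 95% interval of 70.0 to 83.5, which covers counting error only. The MAP kinase model Glyma11g15700.1 had 123 RPKM in CG and 2.79 RPKM in CS. Both of these models were among the 1000 with the highest RPKM in CG, at ranks 520 and 758, while their ranks in CS were 33834 and 30173. The second MAP kinase model, Glyma12g07770.1, had 99.1 RPKM in CG and 2.29 RPKM in CS. The exact 95% intervals of the 2 MAP kinase ratios, 41.3 to 47.5 for Glyma11g15700.1 and 39.9 to 46.9 for Glyma12g07770.1, overlapped. As models with the same annotation they may share reads, and their values are not independent.

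The other models that the same table names as kinases were not members. Its 5 expressed kinase models comprised the 2 members and 3 others, with 3 of the 5 at least 2-fold higher in CG and none at least 2-fold higher in CS. Over all expressed models, 13.9% were at least 2-fold higher in CG and 5.57% at least 2-fold higher in CS. Glyma17g05660.1, annotated as a protein kinase APK1B, had 42.5 RPKM in CG and 5.23 RPKM in CS. The receptor-like kinase Glyma12g36160.1 had 27.6 RPKM in CG and 23.5 RPKM in CS, and the wall-associated kinase Glyma13g09420.1 had 13.4 RPKM in CG and 10.3 RPKM in CS. The only other WRKY model of the table, WRKY43 or Glyma19g44380.1, had 39.4 RPKM in CG and 2.32 RPKM in CS, a log2 ratio of 4.03, short of the limit for a member. Of the 21 expressed models that the table groups as related to transcription, 16 had at least 2-fold more RPKM in CG. Their median log2 ratio was 2.54, and WRKY27 was the only member. The study selected these models by their tag counts in the same lines, for the most part as tags more abundant in CS. A list chosen in this way is not independent evidence of a direction. The tags of WRKY27, the MAP kinases and the other named models were not compared in direction with their RPKM.

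Across the 83 members, the level in CG ran from 3.45 to 2509.6 RPKM with a median of 39.4, against a range in CS from 0 to 62.9 RPKM with a median of 0.533. For all 43753 expressed models the medians were 6.21 RPKM in CG and 4.86 RPKM in CS. The members were thus mostly of middle to high abundance in CG, where 70 had 10 RPKM or more and 18 had 100 RPKM or more. In CS, 47 members were below 1 RPKM and 82 were below 10 RPKM. By level in CG, the members were 5 of 17433 models (0.0287%) at 1 to 5 RPKM and 18 of 995 models (1.81%) at 100 RPKM or more. The CG level is part of the ratio that chose the members, so that such an increase is built in, and with the pseudocount a model at 0 in CS must have at least 3.1 RPKM in CG to pass.

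**Figure D1:**
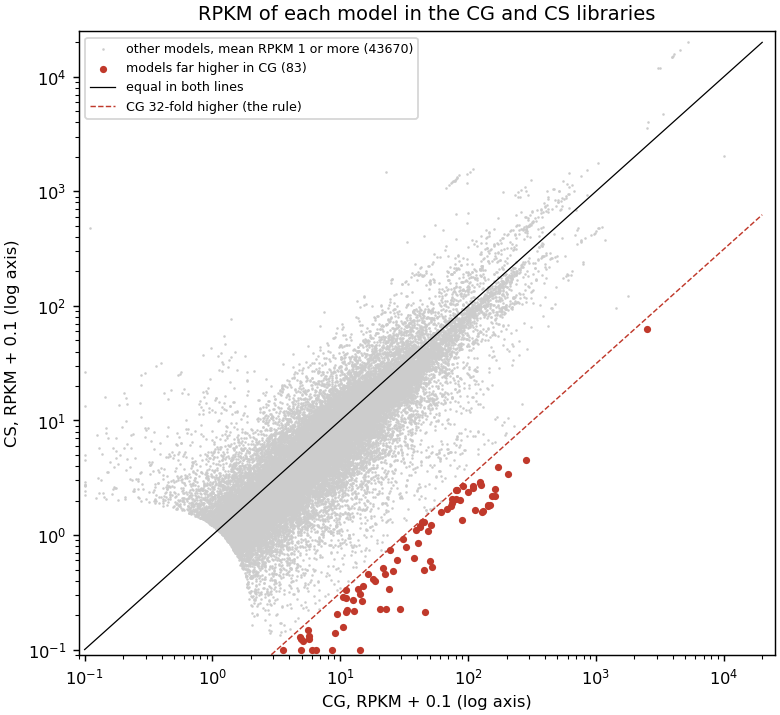
Each point is 1 expressed model (mean RPKM at least 1), with its RPKM + 0.1 in CG on the horizontal and in CS on the vertical log axis, where the solid line marks equal levels and the dashed line the 32-fold limit. The 83 members (red) lie below the dashed line, the highest of them at 2509.6 RPKM in CG and 62.9 RPKM in CS.

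Glyma02g18090.1 stood apart from the other members by its abundance. It had 2509.6 RPKM in CG and 62.9 RPKM in CS, from 384378 and 9991 alignments, and a ratio of 39.9-fold (exact 95% interval 39.1 to 40.7). In CG it had the 13th highest RPKM of all 78773 models, and in CS its rank was 1537. It was also the only member above 10 RPKM in CS. The next most abundant locus was Glyma17g06050, with 285 RPKM in CG and 4.45 RPKM in CS.

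Several loci shared the other places among the 10 members with the highest levels in CG. Glyma11g04130.3 had 206 RPKM in CG and 3.33 RPKM in CS, and its sister models Glyma11g04130.1 and Glyma11g04130.2 had 163 and 155 RPKM in CG, against 2.43 and 2.10 RPKM in CS. Glyma01g41290.1 had 170.5 RPKM in CG and 3.84 RPKM in CS. All of these, like WRKY27 between them, combined a place among the 1000 most abundant models of CG with a level of only a few RPKM in CS. Glyma13g16620.1 followed with 149.6 RPKM in CG and 1.75 RPKM in CS. The group was completed by Glyma08g23380.1 with 144 RPKM in CG and 1.72 RPKM in CS, and Glyma08g23380.4 with 143 RPKM in CG and 1.71 RPKM in CS. No annotation was used for these loci.

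**Figure D2:**
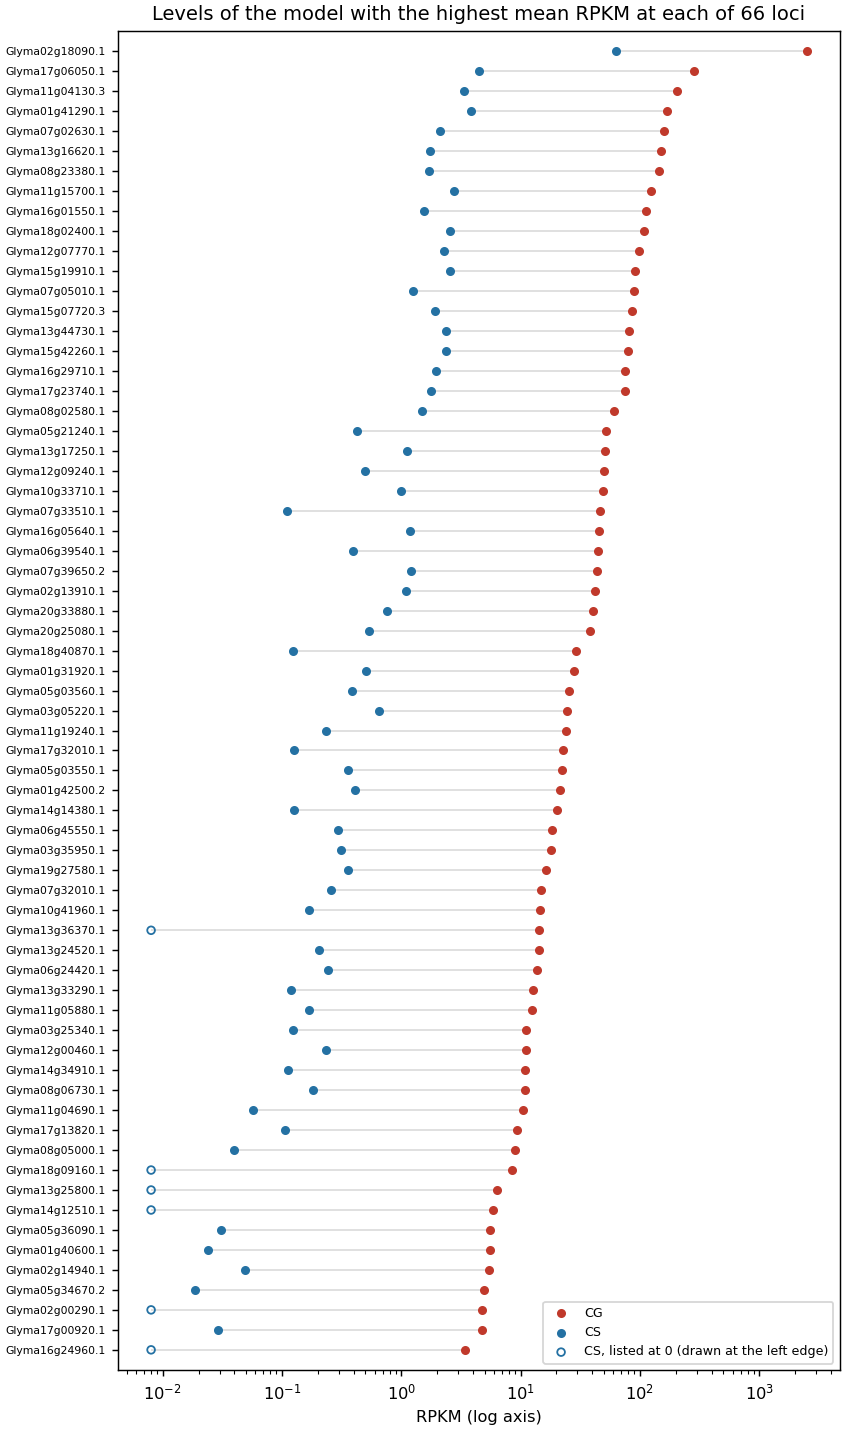
RPKM on a log axis for the model with the highest mean RPKM at each of the 66 member loci, in CG (red) and in CS (blue), sorted by the CG level. Levels in CG run from 3.45 to 2509.6 RPKM, and the 6 open circles at the left edge are models listed at 0 in CS.

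The ratio with the pseudocount had a median of 5.51 on the log2 scale over the members and reached 7.78. It was below 5.5 for 41 members, 6 or more for 23 and 7 or more for 3. The largest was that of Glyma07g33510.1, with 46.1 RPKM in CG and 0.111 RPKM in CS, from 6814 and 17 alignments. Without a pseudocount this is 416-fold, with an exact 95% interval of 260 to 714. The interval is wide because of the 17 alignments in CS, and its lower end is above the upper end for Glyma02g18090.1. Glyma18g40870.1 had 29.0 RPKM in CG and 0.125 RPKM in CS, a log2 ratio of 7.02, from 1346 and 6 alignments, and its interval reached from 107-fold to 635-fold. The third member above 7, Glyma13g36370.1, was one of those listed at 0 in CS.

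A group of similar size in the log2 ratio followed. Glyma17g32010.1 had 22.8 RPKM in CG and 0.125 RPKM in CS, a log2 ratio of 6.67. Glyma14g14380.1 had 20.4 RPKM in CG and 0.127 RPKM in CS, a log2 ratio of 6.49. The intervals of these ratios, 123-fold to 282-fold and 116-fold to 226-fold, overlapped. Glyma05g21240.1 had 51.9 RPKM in CG and 0.429 RPKM in CS, a log2 ratio of 6.62 that rests on 8 alignments in CS. Glyma06g39540.1, with 44.7 RPKM in CG and 0.391 RPKM in CS, had a log2 ratio of 6.51. Glyma12g09240.1, at 50.1 RPKM in CG and 0.495 RPKM in CS, had one of 6.40 and a narrower interval of 85.3-fold to 121-fold, from 133 alignments in CS. The order among these members is not fixed beyond counting error where the intervals overlap.

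There were 6 members listed at 0 in CS, each the single model of its locus. Glyma13g36370.1 had 14.3 RPKM in CG, Glyma18g09160.1 had 8.52 RPKM, Glyma13g25800.1 had 6.41 RPKM and Glyma14g12510.1 had 5.88 RPKM. The others, Glyma02g00290.1 and Glyma16g24960.1, had 4.79 and 3.45 RPKM in CG. These are members of low to middle abundance, and their ranks in CG ran from 9915 to 30941. With 3 alignments as the limit that a count of 0 allows, the level in CS of a model 1000 bases long could be up to 0.0196 RPKM. No fold is given for these 6 models, because a single value above 0 does not fix the length of the model and their log2 ratios depend on the pseudocount.

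Of the 77 members above 0 in CS, 6 had 3 alignments or fewer there, by the smallest whole numbers that fit. True numbers can be multiples of these, and the intervals of the ratios would then be narrower. Glyma05g34670.2 had 4.98 RPKM in CG and 0.0185 RPKM in CS from a single alignment in CS, and the exact 95% interval of its ratio of 269-fold was 47.8 to 10654. Glyma17g00920.1 also had 1 alignment in CS, with 4.73 RPKM in CG and 0.0292 RPKM in CS. Such ratios are large but poorly determined. At the other end, 38 members had more than 100 alignments in CS. For all 77 members the lower end of the interval was 26.5-fold or more, and for 70 of them it was at least 32-fold.

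The alternative models of a locus went together. Of the 66 member loci, 10 had more than 1 model, and all 27 models of these loci were members, which includes 17 sister models beside the most abundant model of each locus. The log2 ratios of sister models differed by 0.01 to 0.23, with a median of 0.09. Over the 6037 loci with several expressed models, the median spread was 0.02. Sister models share exons and therefore reads, and they do not count as separate observations. A share of 15.2% of the member loci had several models, against 17.6% of all loci with an expressed model.

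Glyma08g23380 had 4 models at 128 to 144 RPKM in CG and 1.495 to 1.72 RPKM in CS, and their log2 ratios were 6.30 to 6.33. The 4 models of Glyma15g07720 had 68.9 to 86.1 RPKM in CG and 1.59 to 1.95 RPKM in CS, and their log2 ratios were 5.29 to 5.41. Neither locus had a model that stayed behind the rest. Among loci with 3 models, Glyma11g15700, the MAP kinase, had the closest ratios at 5.41 to 5.43 on the log2 scale. The models of Glyma16g05640 had log2 ratios of 5.13 to 5.14, with 39.4 to 45.2 RPKM in CG and 1.02 to 1.19 RPKM in CS. Glyma11g04130 had the widest spread of the ratio, 5.91 to 6.13.

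In 4 of the 5 loci with 2 models the levels differed more than the ratios. Glyma01g42500.2 had 21.6 RPKM in CG and 0.412 RPKM in CS, and Glyma01g42500.1 had 10.4 RPKM in CG and 0.190 RPKM in CS. Their levels in CG thus differed by 2.07-fold and their log2 ratios were 5.40 and 5.18. Smaller differences between the levels of sister models were found for Glyma10g33710, with 48.8 and 32.8 RPKM in CG, against 0.989 and 0.693 RPKM in CS, and for Glyma07g39650, with 43.9 and 30.7 RPKM in CG, against 1.20 and 0.825 RPKM in CS. The models of Glyma01g41290 were at 170.5 and 126 RPKM in CG, against 3.84 and 2.64 RPKM in CS. In the remaining locus, Glyma05g34670, the levels were nearly equal, at 4.98 and 4.83 RPKM in CG, against 0.0185 and 0.0226 RPKM in CS.

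**Figure D3:**
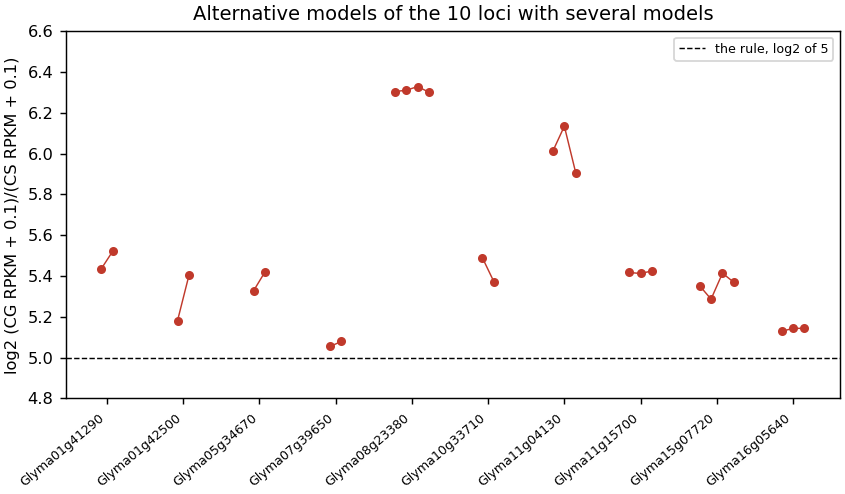
Log2 CG/CS ratio, with 0.1 RPKM added to each value, of every alternative model (points joined by a line) of the 10 member loci with several models, and the limit of 5 (dashed). All 27 models lie above the limit, and the largest spread within a locus is 0.23.

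Members were rarely neighbours of each other. Glyma05g03550 and Glyma05g03560 were the only pair next to each other in the order of the listed loci. Glyma05g03550.1 had 22.4 RPKM in CG and 0.355 RPKM in CS, and Glyma05g03560.1 had 25.7 RPKM in CG and 0.390 RPKM in CS. Their ratios of 62.9-fold (interval 43.6 to 94.2) and 65.9-fold (interval 42.0 to 110) overlapped, and whether they are parts of 1 transcription unit or copies that share reads was not tested. The next closest pair of member loci on a chromosome was 56 positions apart, and the median distance between successive member loci was 645 positions.

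The expressed loci beside the members that were not members themselves were taken as well. Within 2 positions of a member locus there were 130 of them, each represented by their most abundant model. Of these, 36 (27.7%) were at least 2-fold higher in CG, against 15.2% of all 35099 loci, and 8 (6.15%) were at least 2-fold higher in CS, against 5.67% of all loci. The count of 36 was 18 after median-centring, 22 with a common 75th percentile of both libraries and 63 without the filter on the mean. These counts are not parts of the 130, as each alternative changes which loci count as members, neighbours or 2-fold higher. There were 49 member loci after median-centring and 53 with the common 75th percentile. The share over all loci changes as well and was not computed for them. The median log2 ratio of the 130 neighbours was 0.53, against 0.35 for all loci, and the range was from -4.84 to 4.96. Within 5 positions the share at least 2-fold higher in CG was 22.8% of 342 loci. These shares come from the same contrast that chose the members and are given without a test.

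A log2 ratio of 4 or more was found for 5 of the 130 neighbours, or 3.85%, against 0.524% of all loci. Glyma16g29700, next to the member Glyma16g29710, had 52.1 RPKM in CG and 1.57 RPKM in CS, and the member itself had 74.9 RPKM in CG and 1.97 RPKM in CS. Glyma17g00930, next to Glyma17g00920, had 9.90 RPKM in CG and 0.243 RPKM in CS. Both neighbours fell just short of the limit, with log2 ratios of 4.96 and 4.87. The other 3 were Glyma03g05230 beside Glyma03g05220, with a log2 ratio of 4.59, Glyma08g02560 near Glyma08g02580, with 4.33, and Glyma03g35960 beside Glyma03g35950, with 4.00. Within 5 positions, 8 of the 342 neighbours (2.34%) had such a ratio, and 16 (4.68%) were at least 2-fold higher in CS. Of the 8, Glyma16g29660 and Glyma16g29670 (both 4.60) precede Glyma16g29710, and Glyma03g35990 (4.03) follows Glyma03g35950. Glyma16g29680 and Glyma16g29690 were at 3.08 and 2.60, and Glyma03g35970 and Glyma03g35980 at 2.91 and 2.98. Near Glyma18g09160, Glyma18g09130, Glyma18g09140 and Glyma18g09170 were at 3.10, 2.97 and 3.35. Sequence shared between neighbouring copies was not tested, as no model sequences were used here.

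**Figure D4:**
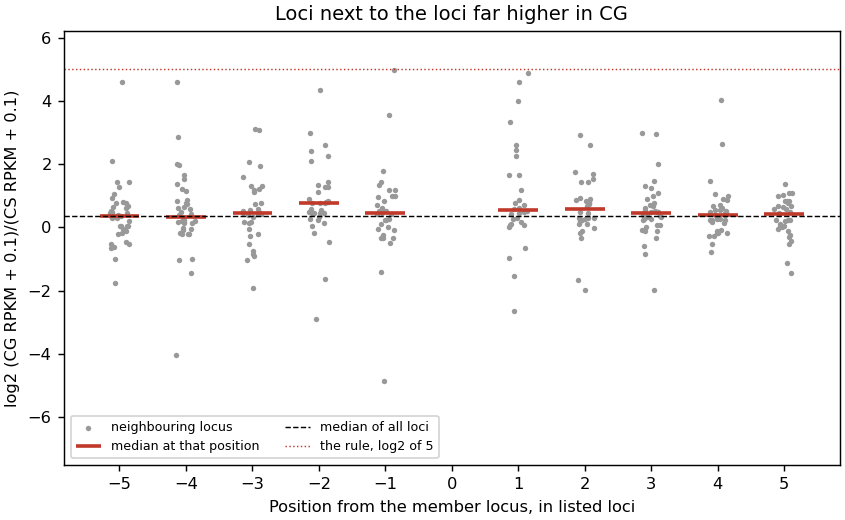
Log2 CG/CS ratio, with 0.1 RPKM added to each value, of loci 1 to 5 positions before and after each member locus (grey points, members left out), with the median at each position (red bars) and the median of all loci, 0.35 (dashed). Most neighbours lie near the dashed line, and the highest reaches 4.96, just under the limit of 5 (dotted).

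By their identifiers the 66 member loci were spread over 18 of the 20 chromosomes. Chromosome 13 had the most loci, 7 of its 2287 expressed loci (0.306%), and chromosomes 5, 7, 11 and 17 had 5 each. Counted as models, chromosome 11 had the most with 9, from the 3 models each of Glyma11g04130 and Glyma11g15700 and 3 single models. Over all chromosomes and scaffolds, 0.188% of 35099 expressed loci were member loci. Chromosome 5 had the highest share at 0.308%, and chromosome 19, with Glyma19g27580 alone, the lowest above 0 at 0.0609%. No member locus was on chromosome 4, of 1658 loci, or on chromosome 9, of 1752 loci, where a count of 0 allows shares of up to 0.181% and 0.171%. With at most 7 loci per chromosome, the order of these shares was not tested.

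**Figure D5:**
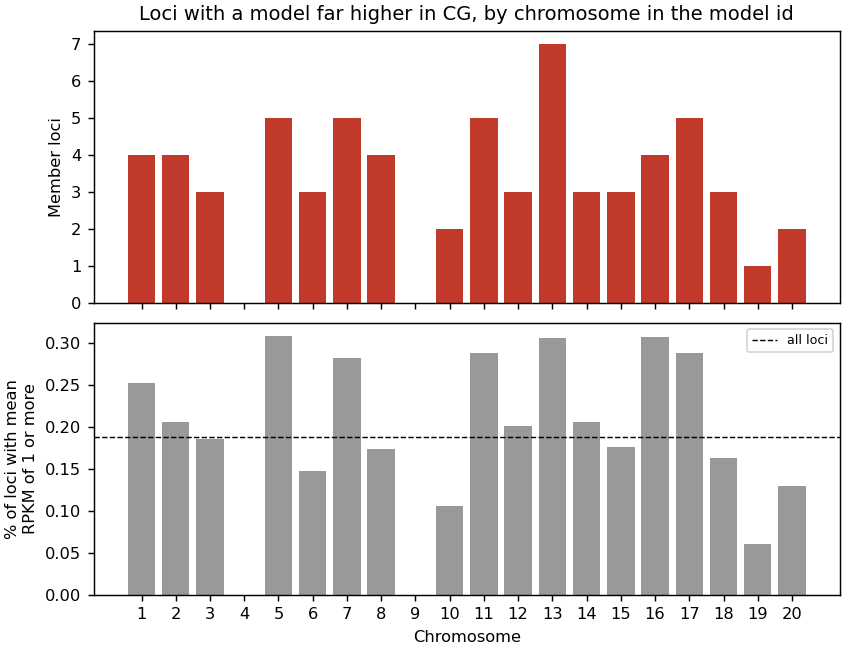
Number of member loci on each of the 20 chromosomes (upper bars, red) and the same as a percentage of the expressed loci of that chromosome (lower bars, grey), with 0.188% for all loci (dashed). Chromosome 13 has the most loci, 7, and chromosomes 4 and 9 have none.

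The listed loci of each chromosome were also divided into 4 parts of equal number. In the outer 2 of these parts lay 39 of the 66 member loci (59.1%) and 54.9% of all expressed loci. The recovered lengths of the 77 members above 0 in CS had a median of 1054 bases with quartiles of 475 and 1716, and those of 43729 expressed models had a median of 1236 with quartiles of 718 and 1826. These lengths are the smallest that fit the values, so that true lengths can be multiples of them.

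The members just inside the limit were Glyma15g42260.1, with 80.3 RPKM in CG and 2.39 RPKM in CS and a log2 ratio of 5.02, Glyma03g05220.1 with a ratio of 5.03, and Glyma13g44730.1 with a ratio of 5.05. Just outside it were Glyma15g08510.1 at 4.97, Glyma16g29700.1 at 4.96 and the zinc finger protein model Glyma03g33070.1 at 4.95, with 61.5 RPKM in CG and 1.90 RPKM in CS. There was no gap in the values at the limit, and 134 models had log2 ratios from 4 to 5.

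In the other direction the same limits gave 42 models from 37 loci that were far higher in CS, or 0.096% of the expressed models. Their median level in CS, the library in which they were high, was 16.5 RPKM, while the CG median of the members was 39.4 RPKM. In this opposite set 2 models reached 100 RPKM in CS, against 18 members that did so in CG. These medians and counts are per model, and sister models share reads. The 18 include all 4 models of Glyma08g23380 and all 3 models each of Glyma11g04130 and Glyma11g15700. After the median ratio of all expressed models was brought to 0, there were 60 models far higher in CG and 53 far higher in CS.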

How the data were processed

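RNA-Seq was carried out with 75-base reads on 1 shoot tip library each of CG and CS. Reads were mapped by the authors with Bowtie to the predicted Glyma transcripts, allowing up to 3 mismatches and up to 25 alignments per read, and deposited 1 RPKM value per model and library. Whether strand was used, and which Bowtie version, are not given in the sources used here. RPKM values are not counts, and with 1 library per line no test was run. A read that fits several models adds to each, which can bring the ratios of related models closer.

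No rescaling was applied here to the deposited RPKM values, and 0.1 RPKM was added as pseudocount for log2 ratios, which understates the change of low models. The ratio of the library totals came from models with equal alignments in CG and CS, and the totals themselves from the largest value that gave whole lengths, raised by 2 or 3 times where the recovered alignments would otherwise sum to more than the total. With totals 2 times smaller only 14.1% of models would have an odd length, against 57.1% with those used, and with totals 2 times larger both numbers of alignments would be even for 73.2% of odd lengths, against 24.6%. The smallest length from 60 to 20000 bases at which both values lay within 0.0002 of whole alignments was then sought, and was found for 69117 of 69123 models above 0. Ratios have exact (Clopper-Pearson) 95% intervals from these alignments. They cover counting error only, and alignments are not independent molecules. Names and tags come from the study's tag table, which paired 135 listed models with a name. Tag counts were not analysed here.

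The text names the 10 members with the largest ratios, the 10 with the highest CG level, members listed at 0 in CS, neighbouring and sister models, those at the limit and those with a name. The members and lists were chosen with earlier results of these data known. The alternatives were pseudocounts of 1 and 0.01 RPKM, no filter or a mean RPKM of 10, median-centring, a common 75th percentile, limits of 4 and 6, 1 model per locus, scaling by mapped reads, and other definitions of neighbours. The computations were tested on simulated data. SciPy 1.17.1, pandas 2.3.3 and NumPy 2.4.6 were used under Python 3.11.15, and figures were drawn with matplotlib 3.10.9.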

Additional observations from a re-analysis of the deposited data

How the results depend on the processing

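No paired analysis was possible because CG and CS have 1 library each, and for the same reason no library was left out. Of 87 alternative values of the counts, 49 stayed within 1.5 times the reported value, among them all 9 with CG and CS scaled by mapped reads, an alternative chosen after seeing the data. The limits, filters and scalings change the counts by construction. With 1 RPKM in place of 0.1, all but 21 of the 83 members dropped out, leaving 14 loci with 8 sister models, 7 of them members, 0 members listed at 0 in CS, 0 loci in runs, 5 members on the richest chromosome, 5 neighbours at least 2-fold higher in CG and 3 models in the other direction. With 0.01 RPKM, 6 loci were in runs and 77 models passed in the other direction. With a mean RPKM of 10 or more there were 54 members in 39 loci, 0 of them listed at 0 in CS, with 5 such neighbours and 18 opposite models, and with no filter 63 such neighbours. Median-centring left 11 sister models as members and 18 such neighbours, and the common 75th percentile left 22. A log2 limit of 4 gave 217 members in 185 loci, 21 on the richest chromosome, 22 loci in runs, 35 sister models of which 33 were members, 85 such neighbours and 107 opposite models. A limit of 6 gave 23 members in 19 loci, 3 listed at 0 in CS, 5 on the richest chromosome, 0 in runs, 5 sister models, all 5 members, 10 such neighbours and 14 opposite models. Up to 5 positions away, 78 neighbours were at least 2-fold higher in CG.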

Other observations

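Beside the 3 members with a name, the study's tag table names further models with high CG/CS ratios that did not reach the limit. They were picked after their values were seen, and the table holds models selected on tag counts of these lines, mostly for tags more abundant in CS, so that they are given as values only. The choice does not follow the order of the ratios, and the 1 expressed model named as a transporter, at 4.89, was above those given here. Glyma09g08290.1, annotated as a jasmonate ZIM-domain protein, a repressor of jasmonate responses, had 199 RPKM in CG and 7.69 RPKM in CS, a log2 ratio of 4.68. Allene oxide cyclase, an enzyme of jasmonate biosynthesis, was represented by Glyma19g05980.1 with 103.9 RPKM in CG and 8.01 RPKM in CS, a log2 ratio of 3.68. The protein phosphatase 2C models Glyma14g37480.1 and Glyma02g39340.1 had 60.5 and 48.2 RPKM in CG, against 4.50 and 4.71 RPKM in CS, with log2 ratios of 3.72 and 3.33. Among the 132 expressed models of the table, 70 (53.0%) had at least 2-fold more RPKM in CG than in CS, against 13.9% of all expressed models, and 3 were members, against 0.19%. That direction is opposite to the one for which most of the tags were selected. The study states that most genes higher in a line by tags were also higher there by RNA-Seq, with other fold changes. The difference between tags and RPKM was not tested. Of its 11 expressed models grouped as defense or stress related, 7 had at least 2-fold more RPKM in CG and 0 had at least 2-fold more in CS, against 13.9% and 5.57% of all expressed models.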
